A study of Mus musculus with 6 samples.

Results

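The Ly6 genes described here are Ly6a, Ly6c1, Ly6c2 and Ly6e, chosen by symbol as the 4 listed members among 37187 genes in the deposited tables. All 4 passed the filter on low counts and were among the 13626 genes tested. They were measured by bulk RNA sequencing in regulatory T cells (Tregs), a CD4 lineage that holds immune responses in check, isolated as CD4+CD25+GITR+ cells from tumour-draining lymph nodes. The host animals were C57BL6 mice in 3 libraries (WT, replicates 1 to 3) and il33-/- mice on that background in the other 3 (KO, replicates 4 to 6). Every mouse, WT included, had received 300000 B16.F10 melanoma cells under the skin, and the nodes were taken on day 14. Neither the age of the animals nor the deleted part of Il33 is given in the sources used here. The labels also do not say whether each library came from its own animal, so the p-values measure only the spread between these libraries, which may be technical. The comparison asks how the absence of the alarmin cytokine IL-33 in the host changed these surface genes.

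Ly6 genes encode small, cysteine-rich proteins that are held at the cell surface by a glycosylphosphatidylinositol (GPI) anchor. Many of them are induced by interferons, and lymphocytes, monocytes and endothelial cells use different members. Ly6a encodes the stem cell antigen Sca-1, which also rises on activated T cells. Ly6c1 and Ly6c2 are close copies that together encode the Ly6C antigen, seen on monocytes, on plasma cells and on part of the T cells. Ly6e encodes an antigen first described on thymocytes.

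The members lie within 157 kb of each other on chromosome 15 of GRCm38. Ly6e (ENSMUSG00000022587) spans 74955051 to 74959905 on the plus strand. Ly6a (ENSMUSG00000075602) spans 74994877 to 74998031, Ly6c1 (ENSMUSG00000079018) 75044018 to 75048830 and Ly6c2 (ENSMUSG00000022584) 75108158 to 75111970, all on the minus strand. All are protein-coding in GENCODE M21. RefSeq promoter sequences were at hand for 2 of the 4 members, Ly6c1 and Ly6c2, and are shown because these are the genes whose change passed the test and whose reads are hardest to tell apart. Each is 300 bases long, 5′ to 3′ along the gene, from GRCm38.p6, minus strand, chr15:75048788-75049087 for Ly6c1 and chr15:75111922-75112221 for Ly6c2. Capitals mark the runs of at least 15 bases that the other promoter also holds.
Ly6c1: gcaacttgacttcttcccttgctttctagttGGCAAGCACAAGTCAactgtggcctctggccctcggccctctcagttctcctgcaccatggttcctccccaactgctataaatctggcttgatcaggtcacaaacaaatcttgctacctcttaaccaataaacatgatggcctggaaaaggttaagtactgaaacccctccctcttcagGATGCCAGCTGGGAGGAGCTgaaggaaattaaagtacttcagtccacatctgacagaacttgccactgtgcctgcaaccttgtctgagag
Ly6c2: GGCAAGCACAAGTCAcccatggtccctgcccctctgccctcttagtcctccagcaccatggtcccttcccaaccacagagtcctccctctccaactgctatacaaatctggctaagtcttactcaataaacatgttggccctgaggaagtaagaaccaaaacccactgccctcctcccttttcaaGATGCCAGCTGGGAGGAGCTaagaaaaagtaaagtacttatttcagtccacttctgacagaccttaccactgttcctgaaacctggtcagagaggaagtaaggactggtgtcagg
The aligned parts of the pair were identical at 208 of 266 bases (78.2%), and the longest shared run was 20 bases. Both were searched on both strands for the core motif of interferon-stimulated response elements and for TTCNNNGAA, the motif of STAT factors. Neither window held a match to either motif. Each gene had 2 listed start sites, and only the window of the site nearest the annotated 5′ end of the gene was searched. By comparison 3.44% of 32851 promoter windows of the same length held the first motif and 8.30% held the second.

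The similarity extends to the transcripts and limits how well reads can be assigned. Of the 50-base windows in annotated Ly6c1 transcripts, 21.5% also occurred in Ly6c2 and 11.1% in Ly6a, and 32.8% occurred in at least 1 other gene. At 100 bases the share of Ly6c1 windows found in any other gene was 10.1%. For Ly6c2 the shares were 14.5% at 50 bases and 5.81% at 100 bases, and for Ly6a 19.0% and 1.45%. No window of Ly6e occurred in another gene at 50, 75 or 100 bases. The sources used here give neither the read length nor the handling of reads that match several genes, so the values of Ly6a, Ly6c1 and Ly6c2 are uncertain to that extent.

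The libraries held 18071928 to 21165063 counts. For Il33, the gene targeted in KO mice, WT replicates 1, 2 and 3 held 7, 0 and 9 reads and KO replicates 4, 5 and 6 held 3, 8 and 2, too few to check the labels. Foxp3, the defining factor of Tregs, had between 719.2 and 856.9 CPM (counts scaled to a common library size with TMM factors) in every library, and Cd4 between 546.6 and 625.0 CPM. WT replicate 2 stood apart from the other WT libraries in B cell transcripts. The sum of the 19 measured B cell markers was 6806 CPM in WT replicate 1, 2924 in WT replicate 2 and 5537 in WT replicate 3, and 2253, 2773 and 2175 CPM in KO replicates 4, 5 and 6.

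Compared on the deposited FPKM scale, which corrects for transcript length, the members differed widely in level but kept 1 order in each library. Ly6e was the most abundant, at 506.8 ± 8.04 FPKM in WT and 474.7 ± 38.9 FPKM in KO (SD, n = 3 each). Ly6a followed at 133.7 ± 12.2 and 93.9 ± 17.6 FPKM, and Ly6c1 at 63.1 ± 7.30 and 46.8 ± 2.87 FPKM. Ly6c2 was a minor transcript, at 5.76 ± 1.81 FPKM in WT and 2.46 ± 0.969 FPKM in KO. The lowest Ly6a value of any library, 76.3 FPKM, was above the highest Ly6c1 value, 71.0 FPKM, and the other neighbours in the order were further apart. Summed over the 4 members, WT replicates 1, 2 and 3 held 690.9, 741.2 and 695.9 FPKM and KO replicates 4, 5 and 6 held 559.9, 635.0 and 658.6 FPKM. The KO sum was lower without overlap, with a two-sided exact permutation p of 0.1, the smallest that 3 against 3 libraries allow.

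The Ly6C genes were lower in KO Tregs. In the edgeR quasi-likelihood test with Benjamini-Hochberg adjustment over all genes, 2 of the 4 members passed the threshold of 0.05, both lower in KO. Of all genes tested 6.50% passed, 2.83% as lower and 3.68% as higher. In 3 of the 4 members all KO libraries lay below all WT libraries, which was the case for 12.6% of all genes tested.

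Ly6c1 had 53.4, 61.3 and 49.03 CPM in WT replicates 1, 2 and 3 and 40.2, 38.2 and 43.4 CPM in KO replicates 4, 5 and 6. The groups did not overlap, and WT replicate 2 was highest. The means were 54.6 ± 6.21 and 40.6 ± 2.64 CPM (SD, n = 3 each). The log2 fold change was -0.43 (SE 0.09), or 0.744 of the WT level, and the edgeR adjusted p was 0.0106. When KO replicate 5 was left out, these became -0.38 and 0.0562.

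Ly6c2 had 4.60, 6.03 and 3.15 CPM in WT replicates 1, 2 and 3 and 1.53, 2.86 and 1.52 CPM in KO replicates 4, 5 and 6. The groups did not overlap, though WT replicate 3 and KO replicate 5 were close to each other. These levels rest on 57 to 116 counts in WT and 32 to 60 in KO. The log2 fold change was -1.22 (SE 0.30) or 0.428 of the WT level, with an edgeR adjusted p of 0.0336. This call was lost without WT replicate 1 (edgeR adjusted p = 0.0932), WT replicate 2 (0.0532), KO replicate 4 (0.0983) or KO replicate 6 (0.136).

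**Figure D1:**
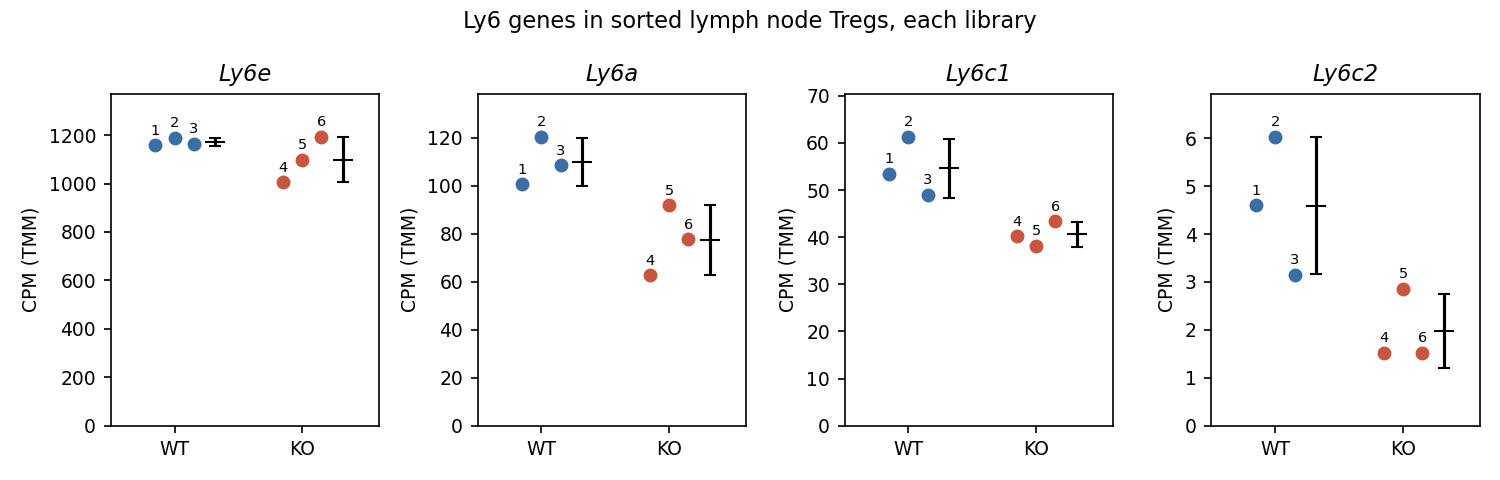
CPM of each member in each library, on axes that start at 0, with replicate numbers beside the points and the group mean ± SD (n = 3) to the right. The KO libraries lie below all WT libraries for Ly6a, Ly6c1 and Ly6c2, while KO replicate 6 is the highest library for Ly6e.

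Because reads of the 2 Ly6C genes can be split between the copies, their counts were also summed to 1 row and the whole table was refitted. The sum had a log2 fold change of -0.48 (edgeR adjusted p = 0.00743). It passed in each of the 14 alternatives tried for it, with log2 fold changes from -0.74 to -0.37 and adjusted p-values of at most 0.0458. The limma fits on FPKM and on normalized counts were not run for the sum. On both FPKM scales neither Ly6c1 nor Ly6c2 passed on its own. The part of Ly6c2 in the sum was 7.93%, 8.96% and 6.04% in WT replicates 1, 2 and 3 and 3.65%, 6.97% and 3.39% in KO replicates 4, 5 and 6. KO replicate 5 lay among the WT libraries. Its exact (Clopper-Pearson) 95% interval ran from 5.36% to 8.88%, which covers counting error only. The difference between the group means, -2.97 percentage points, had a two-sided exact permutation p of 0.2 (n = 3 each, smallest possible p 0.1), so a larger change of Ly6c2 than of Ly6c1 was not shown.

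**Figure D2:**
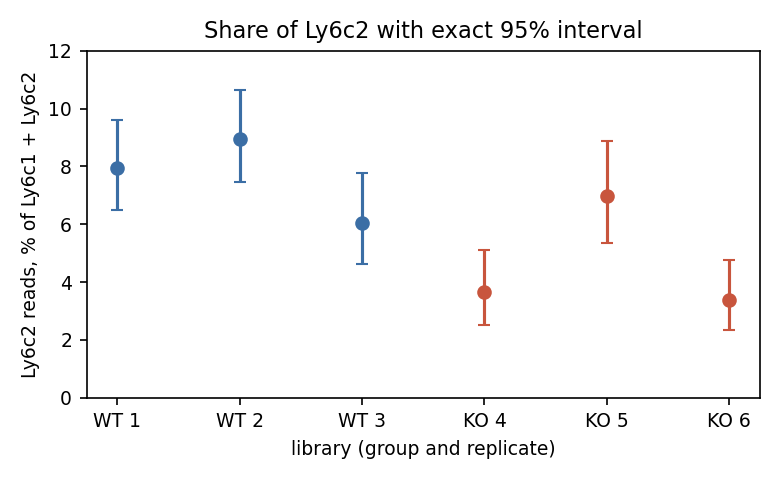
Reads of Ly6c2 as a percentage of Ly6c1 plus Ly6c2 reads in each library, with exact 95% intervals for counting error. KO replicates 4 and 6 lie below every WT library, and KO replicate 5, at 6.97%, lies between WT replicates 3 and 1.

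Ly6a, the gene of Sca-1, had 100.7, 120.3 and 108.6 CPM in WT replicates 1, 2 and 3 and 62.8, 91.7 and 77.7 CPM in KO replicates 4, 5 and 6. All KO values were below all WT values, but the KO libraries were spread widely. The means were 109.8 ± 9.88 and 77.4 ± 14.5 CPM (SD, n = 3 each). The log2 fold change of -0.51 (SE 0.14, 95% interval -0.85 to -0.16), or 0.705 of the WT level, did not pass over all genes, with an edgeR adjusted p of 0.1004. DESeq2 gave an adjusted p of 0.000232 for nearly the same log2 fold change, and edgeR passed it without KO replicate 4 (adjusted p = 0.0449), without KO replicate 5 (0.0135) and without the filter on low counts (2.47e-09). Ly6a did not pass in the other 13 of 17 alternatives, among them limma-voom (adjusted p = 0.0915) and edgeR without KO replicate 6 (0.261). Without the filter edgeR called 1645 genes, against 886 with it.

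Ly6e had 1157, 1189 and 1164 CPM in WT replicates 1, 2 and 3 and 1006, 1098 and 1193 CPM in KO replicates 4, 5 and 6. The groups overlapped, with KO replicate 6 highest and KO replicate 4 lowest of the 6 libraries. The log2 fold change was -0.09 (SE 0.06, edgeR adjusted p = 0.439), and its 95% interval, -0.22 to 0.04, reached from 0.856 to 1.03 of the WT level. Ly6e made up 76.8% ± 1.67 of the summed FPKM in KO against 71.5% ± 1.63 in WT (SD, n = 3 each, two-sided exact permutation p = 0.1, the smallest possible).

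**Figure D3:**
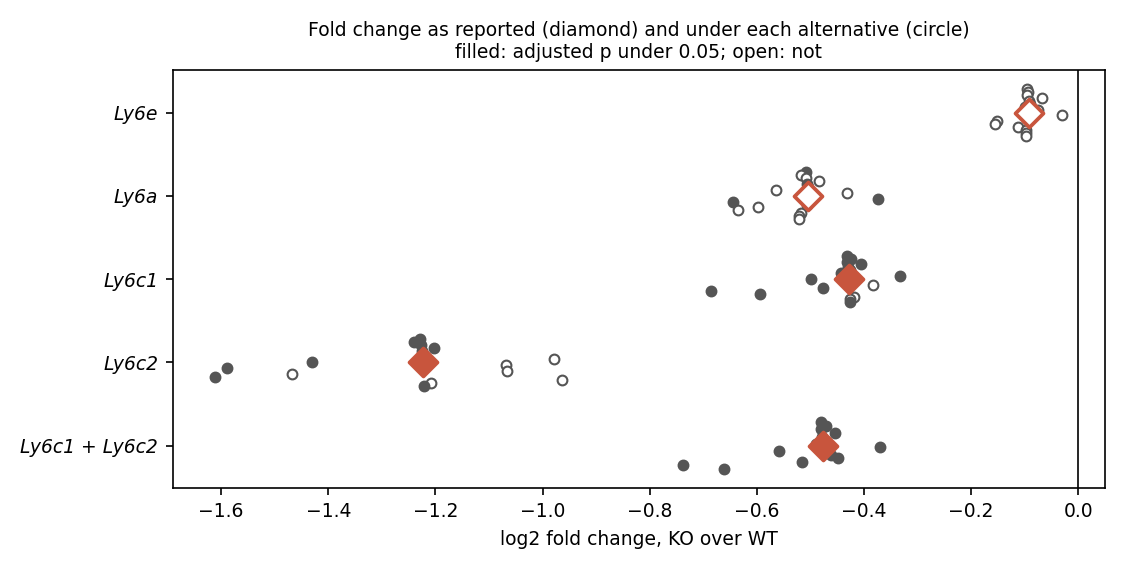
Log2 fold change of KO over WT for each member and for the summed Ly6C genes, as reported (diamonds) and under each alternative test, scaling, filter or left-out library (circles), filled where the adjusted p was under 0.05. All points lie below 0. Those of Ly6c1 plus Ly6c2 are filled throughout, but the limma fits on FPKM and normalized counts were not run for this sum. Those of Ly6e are open throughout, and those of Ly6a, Ly6c1 and Ly6c2 are mixed.

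Transcripts of other cells that carry Ly6 antigens were looked at beside these results. In bulk RNA, fewer cells of a type and less RNA per cell cannot be told apart. None of the 19 B cell markers passed the edgeR test, while 19 had an unadjusted p under 0.05, all lower in KO, and DESeq2 called 17 of them and limma-voom 0. When WT replicate 2 was left out, edgeR called 13 of them lower. WT replicate 2, the WT library with the fewest B cell transcripts, had the highest Ly6a, Ly6c1 and Ly6c2 values of all libraries. With WT replicates 1 and 3 left out, the log2 fold changes were -0.64 for Ly6a, -0.59 for Ly6c1 and -1.61 for Ly6c2, with edgeR adjusted p-values of 0.333, 0.00347 and 0.0156. That fit has a single WT library, whose spread is taken to equal that of the KO group. The B cell score, the mean log2(CPM + 1) of these markers, was also added as a covariate. The log2 fold changes of Ly6a, Ly6c1 and Ly6c2 were then -0.60, -0.69 and -1.47, with edgeR adjusted p-values of 0.486, 0.0126 and 0.246. That score was higher in every WT library than in any KO library, with WT replicate 2 nearest to the KO libraries. With so few libraries it can hardly be separated from genotype, here and in the covariate fits below. Whether the Ly6 changes are free of B cell content was therefore not tested.

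For the calls below, 6.50% of all genes tested passed, 2.83% as lower and 3.68% as higher. Monocyte and macrophage markers (16 measured) summed to 535.2 to 581.2 CPM in WT and 513.2 to 577.1 CPM in KO, so the groups overlapped in the sum. The median log2 fold change of those tested was -0.34, with 4 lower and 2 higher at an unadjusted p under 0.05. Of the 14 tested, Cd68 was higher and Plac8 lower in KO, with log2 fold changes of 0.91 and -1.56; Cd68 did not pass without KO replicate 6, nor Plac8 without KO replicate 4 or KO replicate 6. The monocyte receptor gene Csf1r had 1.91 to 4.04 CPM, and the macrophage gene Adgre1 0.26 to 1.22 CPM, over the 6 libraries. Ccr2, which T cells also use and which is given after its values were seen, had 91.8, 105.0 and 108.3 CPM in WT replicates 1, 2 and 3 and 58.1, 95.8 and 78.5 CPM in KO replicates 4, 5 and 6, with a log2 fold change of -0.39 (edgeR adjusted p = 0.347). Of the neutrophil list (10 measured, 4 at 0 in every library: Elane, Retnlg, Ngp and S100a9) the sum was 4.32 to 7.90 CPM in WT and 5.86 to 7.24 CPM in KO. The endothelial markers (15 measured) summed to 214.5 to 233.3 CPM in WT and 247.8 to 258.2 CPM in KO, higher in KO. Nearly all of that sum was Pecam1, which T cells express too (215.8 ± 9.92 CPM in WT and 248.4 ± 5.86 CPM in KO, SD, n = 3 each). Its edgeR adjusted p was 0.0427 and passed in no fit that left out 1 library, while the defining endothelial genes Cdh5 and Kdr had at most 0.62 and 0.39 CPM and Emcn had 0 counts. Plasma cell markers (12 measured) summed to 384.0 to 406.3 CPM in WT and 375.9 to 452.2 CPM in KO, and of these only Sdc1, the gene of CD138, passed, at 7.43 ± 1.17 CPM in WT and 3.83 ± 0.647 CPM in KO (edgeR adjusted p = 0.00905). CD8 T cell and cytotoxic markers (16 measured) summed to 981.1 to 1165 CPM in WT and 1143 to 1167 CPM in KO, with Tbx21 and Nkg7 higher and Klrk1 lower of 15 tested. All 3 calls were lost when either of WT replicates 1 and 3, or either of KO replicates 5 and 6, was left out, and 1 of the higher ones was lost without KO replicate 4. The part of these cells in the Ly6 results was not tested.

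Some dendritic cell transcripts were lower in KO, with 2.83% of all genes as the share called lower. The sum of conventional dendritic cell markers (12 measured, 0 of them at 0) was 58.4, 35.6 and 59.2 CPM over WT replicates 1, 2 and 3 and 25.5, 30.7 and 19.5 CPM over KO replicates 4, 5 and 6, and Cacnb3, Ccl22 and Lamp3 were lower among 8 tested. Plasmacytoid dendritic cell markers (12 measured, 0 at 0) summed to 435.7, 343.5 and 392.8 CPM in WT and 322.8, 310.6 and 302.2 CPM in KO, and Siglech and Tcf4 were lower among 10 tested (4 lower and 2 higher at an unadjusted p under 0.05). Siglech, a defining gene of the latter cells, had 1.66, 2.76 and 1.83 CPM in WT and 0.86, 0.81 and 0.90 CPM in KO. With edgeR the conventional list had 1 lower call in the fits lacking WT replicate 3 or KO replicate 6. The plasmacytoid list had 1 in the fit lacking WT replicate 1, and 0 where WT replicate 3 or any 1 of the KO libraries was left out. Among WT libraries both sums were lowest in WT replicate 2, as the B cell markers were, while Siglech was highest there. Over the alternatives that tested them, the log2 fold change ran from -1.11 to -0.17 for Tcf4 and from -1.43 to -0.43 for Ccl22. It ran from -3.09 to -0.96 for Lamp3, -1.54 to -0.70 for Cacnb3 and -1.90 to -1.01 for Siglech. The part of B cell content in these changes, and of dendritic cells in the Ly6 results, was not tested.

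**Figure D4:**
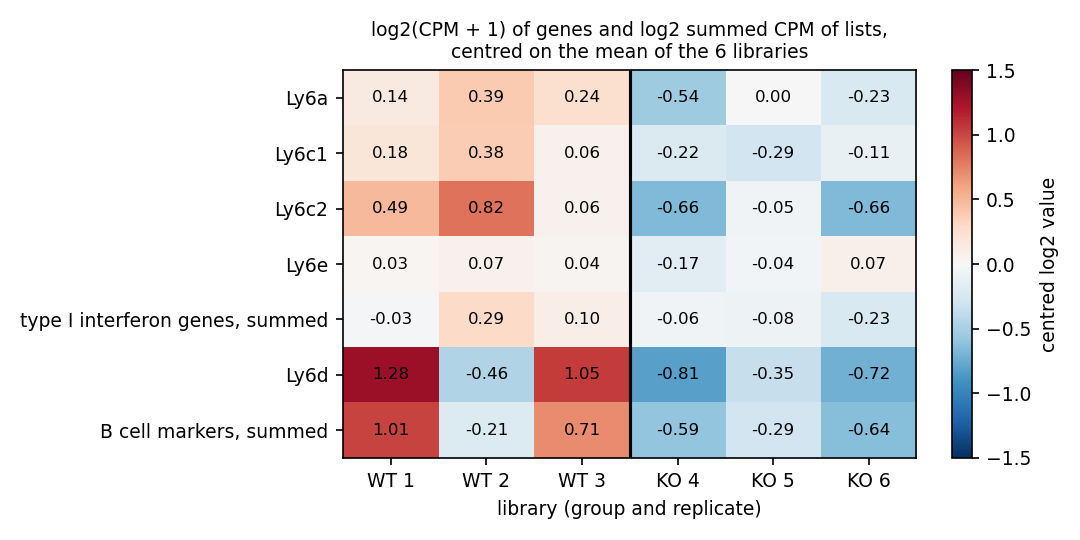
Each row shows a gene, or the summed CPM of a marker list, as its difference from the mean of the 6 libraries on the log2 scale, with WT left and KO right of the black line. Ly6a, Ly6c1 and Ly6c2 are highest in WT replicate 2, where Ly6d and the B cell markers are lowest among WT libraries.

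Other Ly6 genes of the chromosome 15 cluster were few in these cells. Of 17 listed relatives 15 were in the table, 6 had 0 counts in every library and 3 were tested. None of these 3 passed in edgeR, DESeq2 or limma-voom, and 0 had an unadjusted p under 0.05. Ly6d, a gene of B cells and plasmacytoid dendritic cells, had 58.2, 16.8 and 49.5 CPM in WT replicates 1, 2 and 3 and 12.9, 18.2 and 13.9 CPM in KO replicates 4, 5 and 6. WT replicate 2 lay among the KO libraries. The log2 fold change of Ly6d was -1.47 (SE 0.54, edgeR adjusted p = 0.231), -1.84 without WT replicate 2 (adjusted p = 8.87e-06) and 0.31 with that score as covariate (adjusted p = 0.617). For Lynx1, which encodes a modulator of acetylcholine receptors, it was -0.51 (SE 0.29, edgeR adjusted p = 0.368), -0.80 without WT replicate 2 (adjusted p = 0.00992), 0.59 with the covariate and 0.36 with WT replicates 1 and 3 left out. Ly6k, a gene known from testis, was at 2.09 ± 0.896 CPM in WT and 1.95 ± 0.767 CPM in KO. Within 1 Mb of the members 51 other genes lay in the table, of which 21 were tested. None of the 21 passed in edgeR, DESeq2 or limma-voom (3 at an unadjusted p under 0.05), and their median log2 fold change was -0.02, against 0.00 over all genes tested.

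**Figure D5:**
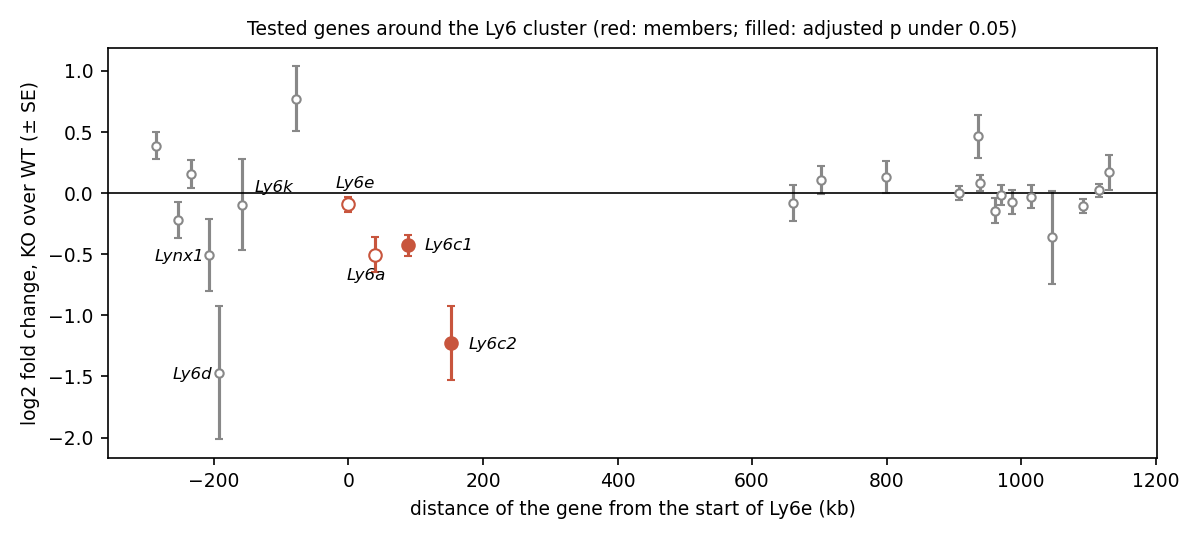
Log2 fold change of KO over WT (± SE) of the 25 tested genes within 1 Mb of the members, by distance from the start of Ly6e in kb. Ly6c1 and Ly6c2, filled, are the ones that passed; Ly6d, open, lies at -1.47 with a wider error.

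Ly6 proteins need the enzymes that build and attach the GPI anchor. Of 29 genes of GPI anchor synthesis 1 was higher, 3 were lower and 25 did not pass in edgeR (13.8% called, against 6.50% of all genes), with a median log2 fold change of 0.00. Pgap1, which remodels the attached anchor, fell from 44.4 ± 9.90 to 24.2 ± 1.62 CPM (SD, n = 3 each). It had 53.1, 33.6 and 46.4 CPM in WT replicates 1, 2 and 3, lowest where the B cell markers were lowest among WT libraries. Its log2 fold change ran from -1.04 to -0.28 over the alternatives. The log2 fold changes of Pigv, a mannosyltransferase of the pathway, and of Pigyl were -0.37 (SE 0.10) and -0.50 (SE 0.13). Pigk, the catalytic subunit of the transamidase, rose by 0.27 (SE 0.07). No lower gene passed without WT replicate 3, KO replicate 4 or KO replicate 5, 1 passed without WT replicate 1 or KO replicate 6, and Pigk passed among the left-out libraries only without WT replicate 2. Without WT replicate 3 the edgeR adjusted p was 0.0756 for Pgap1, 0.0938 for Pigv, 0.149 for Pigyl and 0.0628 for Pigk. With the B cell score as covariate edgeR called 0 genes of this list higher and 0 lower. Of 12 tested genes for other GPI-anchored surface proteins 1 was higher, Nt5e, which encodes CD73, with a log2 fold change of 0.38 (SE 0.09) whose call was lost without any 1 library other than WT replicate 2 (edgeR adjusted p up to 0.143). None of the 12 was lower in edgeR, DESeq2 or limma-voom (0 at an unadjusted p under 0.05), though 2 were without WT replicate 2. Of 16 relatives of the Ly6 and urokinase receptor family elsewhere in the genome 3 were tested and 0 passed in edgeR (1 lower at an unadjusted p under 0.05, 1 by DESeq2, 0 by limma-voom). Plaur, the urokinase receptor gene, had a log2 fold change of -1.05 (adjusted p = 0.152) and passed without WT replicate 2 (-1.30, edgeR adjusted p = 0.00807).

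Type I interferon genes, among which Ly6 members are often counted, were lower in KO in part. Of 49 tested 12 passed as lower (24.5% against 2.83% of all genes), 37 did not pass, and 0 passed as higher in edgeR, DESeq2 or limma-voom (0 at an unadjusted p under 0.05). The median log2 fold change was -0.25. Ifit1bl1, an interferon-induced relative of the Ifit genes, was at 120.0 ± 7.45 CPM in WT and at 83.1 ± 4.59 CPM in KO (SD, n = 3 each), and Trim25, a ubiquitin ligase of RNA sensing, fell from 156.3 ± 6.42 to 124.2 ± 5.65 CPM. Over WT replicates 1, 2 and 3 the list's sum was 6846, 8568 and 7496 CPM and over KO replicates 4, 5 and 6 it was 6719, 6618 and 5982 CPM, with WT replicate 2 highest, as for Ly6a, Ly6c1 and Ly6c2. The number lower rose to 19 when WT replicate 1 was left out. It was 5 in the fits that lacked WT replicate 3 or KO replicate 6, 7 in that lacking KO replicate 4, and 3 with the B cell score as covariate. Interferon-gamma response genes did not follow, with 3.68% of all genes as the share called higher. Of 34 tested 7 were higher and 0 lower in edgeR (12 higher and 5 lower at an unadjusted p under 0.05; 1 lower by DESeq2, 0 by limma-voom), and 4, 2 and 3 were higher without WT replicate 1, WT replicate 3 and KO replicate 5. Of 15 genes of interferon receptors and their signalling 2 were lower, Ptpn6 and Usp18, an inhibitor of the type I receptor, with edgeR adjusted p-values of 0.0206 and 0.0420 that became 0.0988 and 0.154 without WT replicate 3. Ptpn6 passed among the left-out libraries only without WT replicate 2, and Usp18 only without WT replicate 1 or KO replicate 5. Ptpn6 had 420.9, 331.6 and 395.7 CPM in WT replicates 1, 2 and 3, lowest where the B cell markers were lowest among WT libraries. Over the alternatives its log2 fold change ran from -0.45 to -0.11, and that of Usp18 from -0.48 to -0.31.

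Ly6C also serves as a marker of resting Tregs, so both states were counted. Of all genes tested 2.83% passed as lower and 3.68% as higher. Of 21 genes of resting or central Tregs 4 were lower (among them Dapl1, Rasgrp2 and Satb1), 1 was higher (Foxo1, in no fit that left out 1 library) and 16 did not pass, with a median log2 fold change of -0.05. Dapl1 fell from 7.72 ± 0.10 to 4.41 ± 0.474 CPM (SD, n = 3 each, edgeR adjusted p = 0.00845). The number lower on this list was 2 in the fit lacking WT replicate 1 and 1 in those lacking WT replicate 3 or KO replicate 5. Of 32 effector Treg genes 10 were higher, 22 did not pass and 0 were lower in edgeR, DESeq2 or limma-voom (0 at an unadjusted p under 0.05), with a median of 0.16, and 6 were higher without WT replicate 1 or WT replicate 3. With the B cell score as covariate edgeR called 0 genes of the resting list lower and 2 of the effector list higher. Of 15 Treg identity genes 3 were higher (Ctla4, Nrp1 and Ikzf4) and 12 did not pass, with a median of 0.16. The number higher ran from 2 to 6 as each library was left out, and was 6 without WT replicate 2. Ctla4 and Nrp1 are also on the effector list, so their calls are counted in both.

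For each member the 3 genes with the nearest pattern were found among 9474 named protein-coding genes (9475 for Ly6c2) with a mean of at least 5 CPM, by the root mean square difference of centred log2(CPM + 1) values over the 6 libraries. For Ly6c1 these were the Schlafen genes Slfn1 and Slfn2, which are interferon-responsive, and Myo6, at differences of 0.046, 0.053 and 0.058. Slfn1 had 229.2, 273.9 and 220.2 CPM in WT replicates 1, 2 and 3 and 167.1, 171.8 and 184.6 CPM in KO replicates 4, 5 and 6. For Ly6c2 they were the interferon-induced genes Oasl1, Ifit3b and Oas2, at looser differences of 0.22, 0.26 and 0.27. For Ly6a they were Nid2, Repin1 and Cyp2s1, at 0.067, 0.072 and 0.081. For Ly6e they were Zfp952, Brd7 and Pdrg1, at 0.017, 0.022 and 0.023, all with values as even as those of Ly6e itself. Between the members themselves, which were not picked for likeness, the differences ran from 0.19 between Ly6c1 and Ly6e to 0.51 between Ly6c2 and Ly6e.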

How the data were processed

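Deposited were 3 tables: raw counts by Ensembl ID, the authors' normalized counts by symbol (a signal) and the authors' FPKM by symbol. The submitters' processing notes name bcl2fastq, STAR 2.4.2a, DESeq2 and GRCm38; strand use and the annotation are not stated there. In each library the authors' normalized counts equalled raw counts over a single factor (within 1e-06) for at least 99.87% of genes above 50 counts. GENCODE M21 gave symbols for 35412 of 37187 IDs; IDs without one held 0.260% to 0.308% of counts.

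The test was edgeR 4.0.16 (R 4.3.3) on raw counts: filterByExpr, TMM, robust quasi-likelihood F test, two-sided, Benjamini-Hochberg over all genes, threshold 0.05. Standard errors come from the F statistic, and single values were compared by exact permutation. No pair of libraries within a group agreed within sampling noise (chi-square per degree of freedom 4.81 to 13.4). Depth was 18071928 to 21165063 counts. The exact intervals of the Ly6c2 share cover counting error only, while those of log2 fold changes include the spread between libraries. Alternatives were DESeq2 1.42.0, limma-voom (limma 3.58.1), RLE and upper-quartile scaling, other filters, limma on log2 values of FPKM (pseudocounts 1 and 0.1) or of normalized counts (1), each library left out, a B cell covariate, and WT replicates 1 and 3 left out. Biopython 1.88 aligned the promoters.

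Members and gene lists were chosen with earlier results of these data known. Genes were named by rule: the members, cluster relatives of at least 1 CPM, up to 4 called genes of a list by smallest p, and the 3 nearest patterns of each member. Cell type markers and Foxo1 are named beyond it, after their values were seen. Stromal (4 tested, 0 called by edgeR, DESeq2 or limma-voom, 3 at an unadjusted p under 0.05), natural killer and innate lymphoid (9 tested, 1 higher, Gata3) and melanoma lists (3 tested, 1 higher, Pmel) were counted too, beside 3.68% of all genes called higher. 1 gene of these lists is not reported here.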

Additional observations from a re-analysis of the deposited data

How the results depend on the processing

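No paired analysis was possible because the WT and KO libraries share no replicate numbers. Every alternative kept the 4 members lower in KO; the cause of each lost or gained call was not tested. Ly6a passed with DESeq2 (log2 fold change -0.51) and without a filter (-0.51), and ran from -0.64 to -0.37 as each library was left out. Ly6c1 ran from -0.50 to -0.33 in those fits and did not pass on log2(FPKM + 1) (-0.42, limma adjusted p = 0.0590) or log2(FPKM + 0.1) (-0.43, 0.0591). Ly6c2 ran from -1.59 to -0.98 and did not pass on those scales (-0.96 and -1.21, limma adjusted p = 0.121 for both) or with the B cell covariate (-1.47). Of the members, 1 passed with that covariate, 0 on either FPKM scale, and 1 to 2 with a library left out. Over all genes, against 886, the calls were 1645 without a filter, 81 with the covariate, 282 with WT replicates 1 and 3 left out, 277 and 252 on the FPKM scales (pseudocounts 1 and 0.1), and 367 (without WT replicate 3) to 1364 (without WT replicate 2) with a library left out. Signs turned with the covariate for Lynx1 (0.59), Ly6d (0.31), Ly6k (0.50), Plaur (0.15), Mmp9 (-0.33) and Cd37 (0.0102), with WT replicates 1 and 3 left out for Lynx1 (0.36), Ly6k (0.71) and Mmp9 (-0.257), and with 1 library left out for Ly6k (range -0.38 to 0.24, above 0 without WT replicate 3 or KO replicate 5) and Mmp9 (range -0.0822 without WT replicate 1 to 0.44). Depth limits Ly6c2 most, at 32 to 116 counts per library.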
